A study of Mus musculus with 4 samples.

Results

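Cell death in cultured astrocytes was followed here through 40 genes of the Bcl2 family, the caspases and their activators, the death receptors, necroptosis and the inhibitors of caspases. Every non-control probe whose gene name in the array files equals 1 of these 40 names was taken, which gave 59 of 39429 probes (68 of 43020 spots) for 40 of 29676 gene names. Of the 40 genes, 31 were classed as pro-death and 8 as pro-survival, and *Ripk1*, a kinase that serves both outcomes, was left in neither class. All 40 genes passed the filter on dim probes, 37 of them with their brightest probe well above background on all 4 arrays, while *Bmf*, *Bik* and *Hrk* passed through the untreated arrays alone.

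Proteins of the Bcl2 family decide whether the outer mitochondrial membrane is opened. BH3-only proteins sense stress and engage the guardians Bcl2, Bcl2l1, Bcl2l2 and Mcl1, which hold the effectors Bax and Bak1 in check. Once the membrane is open, cytochrome c binds Apaf1 and activates caspase-9, and the executioner caspases follow unless Xiap or its relatives block them. Death receptors reach the same caspases through Fadd and caspase-8, and where caspase-8 is blocked, Ripk1, Ripk3 and Mlkl can kill the cell by necroptosis. Bnip3 and Bnip3l are known targets of the hypoxia-inducible factor HIF-1 that also mark mitochondria for removal by autophagy.

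Astrocyte-enriched cultures (AECs) were prepared from the cerebral cortex of newborn ICR mice (P1–3), stripped of meninges, and all of them had been treated with PLX3397, which blocks CSF1R, the receptor that microglia need to survive. Untreated AECs (2 samples) were compared with AECs kept for 15 h in DMEM without glucose under hypoxia, that is, oxygen-glucose deprivation or OGD (2 samples). According to the methods, wells were seeded from independent cultures of different pups. The study notes elsewhere that oligodendrocytes, and possibly NG2 glia, were still present. The labels do not tie the 4 samples to mice, so p-values measure the spread between these samples. Total RNA was labeled with Cy3, and each sample was hybridized to 1 array with a single color.

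The deposited value of a spot was its processed signal, an intensity after subtraction of background. The 75th percentile of this signal was 2135 and 2164 in untreated AECs and only 887 and 776 after OGD, and each array was scaled on its own percentile. Beside this scaling, control RNA spiked into every sample gave another, which shifted every log2 fold change by −1.29 and the median over all genes tested from 0.16 to −1.13. "Higher" and "lower" below mean relative to the 75th percentile. All 8 astrocyte markers were well above background on all 4 arrays. Among the other cell types, this held for 5 of 6 markers of microglia, 4 of 5 of oligodendrocytes, both of NG2 glia, 3 of 4 of neurons, 3 of 4 of meningeal fibroblasts and 1 of 2 of endothelial cells. Microglial signals in untreated AECs were 3328 and 2726 for the brightest *Itgam* probe, but 55.6 and 55.0 for *Aif1* and 19.5 and 21.5 for *P2ry12*. By staining, the study found Iba-1-positive cells nearly absent after PLX3397. Of the astrocyte markers, 5 were higher and 1 was lower after OGD (*Sox9*, at −1.52 on the log2 scale), and the glial genes *Olig2* (−2.50) and *Pdgfra* (−1.27) were lower too. Under spike-in scaling all 8 astrocyte markers had log2 fold changes below 0 (signs only), and the part of these shifts in the results was not tested. In these bulk samples, fewer cells of a type and less RNA per cell cannot be told apart. According to the methods a set amount of total RNA was labeled, so neither scaling measures RNA per cell or per culture.

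After OGD, 13 of the 40 genes were higher and 15 were lower at an adjusted p under 0.05 in limma (Benjamini–Hochberg adjustment over 28262 probes). Over all 21048 genes tested, 37.1% were higher and 27.8% lower by the same limit. The 15 include *Bmf*, *Bik* and *Hrk*, which were below background on both OGD arrays and entered the fit through the untreated arrays alone. With a filter that asks for signal well above background on all 4 arrays, 14 of the 37 genes left were higher and 12 lower, beside 43.3% and 28.2% of all genes. A fitted change of at least 2-fold was added to that limit in 3 genes that were higher (*Bnip3*, *Bcl2l11* and *Bnip3l*) and in 9 that were lower (*Bmf*, *Casp9*, *Bik*, *Hrk*, *Apaf1*, *Fadd*, *Casp1*, *Casp2* and *Birc2*), against 12.7% and 15.0% of all genes. Of these 9, 8 were measured on all arrays or bounded at 2-fold or more, and *Bik* has no measurable fold although the fit counts it as lower. Over 10-fold, the limit of the methods, none was higher (0 genes) and *Bmf* alone was lower, against 0.708% and 0.561% of all genes. Signals of the 2 groups, scaled on the 75th percentile, did not overlap in 36 of the 40 genes, and in 84.8% of all genes. Under spike-in scaling *Bnip3*, *Bcl2l11* and *Bnip3l* were the 3 genes that stayed higher, and the other 37 were lower, while of all genes 3.84% were higher and 83.3% lower. With normexp, a model-based background correction with an offset added to every spot, 19 were higher and 14 lower, against 60.5% and 20.8% of all genes. Without the first untreated array 7 genes were higher and 10 lower, beside 21.6% and 16.9% of all genes, and without the second 6 and 10, beside 17.9% and 16.8%. With 2 arrays per group an exact permutation test cannot go below 0.333, so each call rests on limma, which pools what it learns of the spread across probes.

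**Figure D1:**
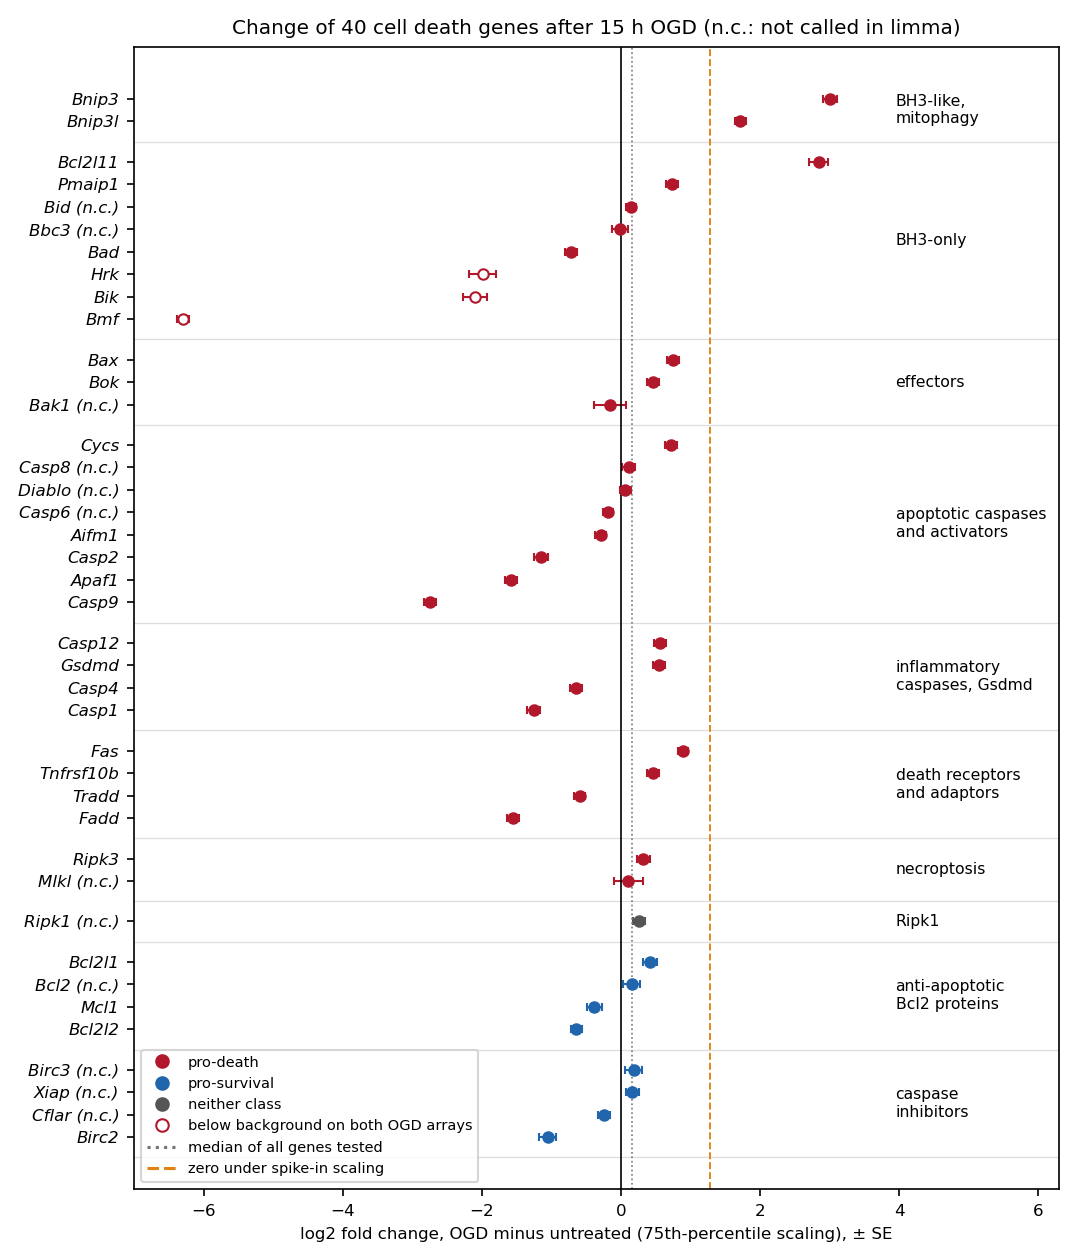
Log2 fold change (OGD minus untreated, 75th-percentile scaling, 2 arrays per group) of the 40 genes by role, with SE from limma; open circles are genes not well above background on both OGD arrays. *Bnip3*, *Bcl2l11* and *Bnip3l* lie to the right of the dashed line, which marks where zero would fall under spike-in scaling, and the other 37 genes lie to its left, so that those drawn above 0 were lower under that scaling.

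*Bnip3*, which encodes a BH3-like protein of the outer mitochondrial membrane, had the largest rise of the 40 genes. The signal of its brightest probe (mm9 chr7:146082760-146082819) was 16641 and 17018 in untreated AECs and 52151 and 52345 after OGD. Both OGD arrays stood far above both untreated arrays, even before any scaling. The log2 fold change was 3.01 ± 0.10 (SE, n = 2 per group), or 8.04-fold, with an adjusted p of 0.000731 in limma, and it was 1.72 under spike-in scaling. The other *Bnip3* probes gave 2.06 and 2.69.

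*Bnip3l*, also known as Nix, encodes the close relative of Bnip3 that clears mitochondria from maturing red blood cells. Its signal was 16600 and 16909 in untreated AECs and 23283 and 19482 after OGD (chr14:67606210-67606269). The OGD arrays were again the higher ones without scaling. Its log2 fold change was 1.72 ± 0.078 (SE, 3.29-fold, adjusted p = 0.000849 in limma), and 0.43 under spike-in scaling. Its other probes gave 1.58, 1.21 and 1.79, all of them past the limit, and the one at 1.21 was at −0.080 under spike-in scaling.

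Of the 8 BH3-only genes, the 5 measured on all 4 arrays gave 2 higher, 1 lower (*Bad*) and 2 not past the limit, beside 37.1% higher and 27.8% lower over all genes. The other 3, *Bmf*, *Hrk* and *Bik*, were below background after OGD and are given as bounds where they have one. *Bcl2l11* encodes Bim, a BH3-only protein that binds every guardian of the family. Its signal was low, at 30.8 and 37.9 in untreated AECs and 108 and 83.2 after OGD. All 4 values were well above background, and both OGD values lay above both untreated values without scaling. The log2 fold change was 2.84 ± 0.14 (SE, 7.18-fold, adjusted p = 0.000944 in limma), and 1.56 under spike-in scaling. A dimmer second probe, well above background on 1 of the untreated arrays, gave 1.72.

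*Bmf*, whose protein is held at the cytoskeleton by dynein and myosin motors until it is released, moved the other way. Its signal was 386 and 417 in untreated AECs and 2.05 and 1.89 after OGD (chr2:118354496-118354555). It was clearly expressed in both untreated samples and not well above background in either OGD sample. Since a spot below background gives only a bound, the measured statement is that *Bmf* was at least 23.3-fold lower. No p is given for such genes, since the fit takes values below background as measurements. That bound sets the mean scaled log2 signal of the untreated arrays against the dimmest signal that still counted as well above background on each OGD array, or the signal of the probe itself where higher. With normexp *Bmf* had a log2 fold change of −1.44.

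*Hrk* and *Bik*, BH3-only genes known from neurons and from epithelial and blood cells, had low signals. The signal of *Hrk* was 65.9 and 49.6 in untreated AECs and 5.48 and 5.68 after OGD, and that of *Bik* was 16.5 and 14.9 against 1.32 and 1.52. Neither was well above background after OGD. *Hrk* was at least 3.31-fold lower, and *Bik* has no fold, since its bound was under 1. Both directions turned with normexp, to log2 fold changes of 0.50 for *Hrk* and 0.90 for *Bik*.

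Of the remaining BH3-only genes, *Bad*, whose protein is switched off by survival kinases, fell by 0.72 on the log2 scale (SE 0.084, adjusted p = 0.00407 in limma). Its second probe gave −0.41. *Pmaip1*, which encodes Noxa, a binder of Mcl1 and a target of p53, was higher by 0.74 (adjusted p = 0.00446 in limma) but at −0.55 under spike-in scaling. *Bbc3*, which encodes Puma, was at −0.02 (adjusted p = 0.912) and *Bid*, the link from caspase-8 to mitochondria, at 0.15 (adjusted p = 0.151), so neither passed the limit. Thus among p53-responsive BH3-only genes *Pmaip1* passed and *Bbc3* did not, and the difference between them was not tested.

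**Figure D2:**
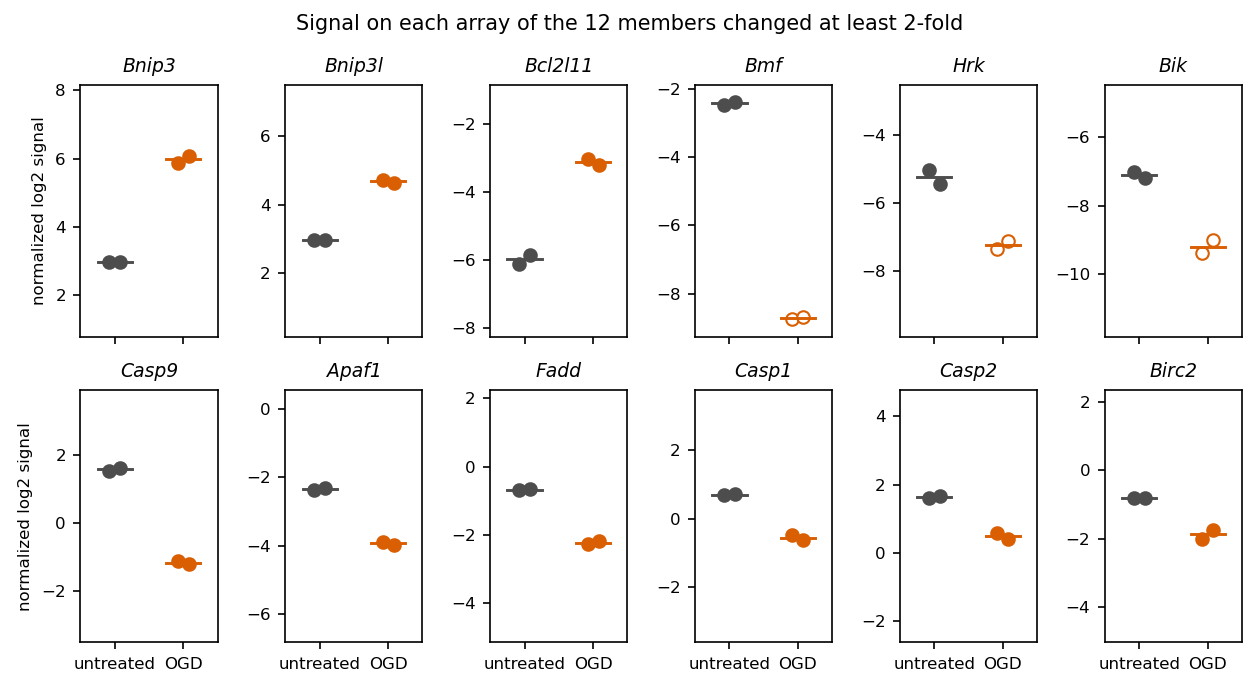
Scaled log2 signal (processed signal relative to the array's 75th percentile) on each of the 4 arrays for the 12 genes past the limit with a fitted change of at least 2-fold; points are arrays, lines are group means, open circles are below background, and every panel spans the same range. The 2 groups are apart in all 12 panels; the directions held under spike-in scaling, and those of *Hrk* and *Bik* turned with normexp.

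Among the 8 caspases of apoptosis and their activators, 1 was higher, 4 were lower and 3 did not pass the limit, beside the same 37.1% and 27.8% of all genes. *Casp9*, the initiator caspase that the apoptosome activates, had a signal of 6176 and 6575 in untreated AECs and 406 and 333 after OGD (chr4:141371773-141371832). It was well above background in every sample, so its fall was measured on both sides. It fell by 2.74 on the log2 scale (SE 0.085, 6.69-fold, adjusted p = 0.000731 in limma), the largest fall among the 40 genes that was not a bound. *Apaf1*, the scaffold of that apoptosome, had a signal of 410 and 436 against 60.1 and 49.4. It fell by 1.58 (SE 0.085, 2.99-fold, adjusted p = 0.00103 in limma), and was at −0.84 with normexp. Scaffold and initiator of the apoptosome were thus both lower in the same 2 samples.

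The promoters of the genes with the 2 largest rises and the 2 largest falls are shown because HIF-1 binds the core letters ACGTG or GCGTG. The sequences are the 250 bases before the outermost start of each gene in RefSeq (GRCm38.p6), 5′ to 3′ on the strand of the gene, and capitals mark ACGTG or GCGTG on either strand. *Bnip3* lies at chr7:138909507-138909756 (minus strand), *Bcl2l11* at chr2:128125788-128126037 (plus), *Bmf* at chr2:118549687-118549936 (minus) and *Casp9* at chr4:141793362-141793611 (plus).
Bnip3: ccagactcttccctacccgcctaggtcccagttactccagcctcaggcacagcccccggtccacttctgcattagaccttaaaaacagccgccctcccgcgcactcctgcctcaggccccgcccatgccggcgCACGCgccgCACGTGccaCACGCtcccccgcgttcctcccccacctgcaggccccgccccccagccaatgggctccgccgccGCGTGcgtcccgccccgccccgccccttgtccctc
Bcl2l11: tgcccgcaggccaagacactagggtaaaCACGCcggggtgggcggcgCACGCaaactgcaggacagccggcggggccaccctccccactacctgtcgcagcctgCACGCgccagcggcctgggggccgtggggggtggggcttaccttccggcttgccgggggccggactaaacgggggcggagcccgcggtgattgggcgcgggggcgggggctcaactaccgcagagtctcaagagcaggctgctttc
Bmf: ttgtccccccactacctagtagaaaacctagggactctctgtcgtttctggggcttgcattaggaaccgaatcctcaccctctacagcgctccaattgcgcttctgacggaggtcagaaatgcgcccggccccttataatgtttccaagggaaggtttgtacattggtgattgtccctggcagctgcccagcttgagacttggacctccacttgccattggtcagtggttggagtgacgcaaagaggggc
Casp9: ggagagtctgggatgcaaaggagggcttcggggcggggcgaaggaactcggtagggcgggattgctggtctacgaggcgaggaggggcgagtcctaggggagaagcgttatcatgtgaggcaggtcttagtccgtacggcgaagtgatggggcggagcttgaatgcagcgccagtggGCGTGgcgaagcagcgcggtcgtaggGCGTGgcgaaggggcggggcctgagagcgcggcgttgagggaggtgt

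In *Bnip3* the capitals cluster between 117 and 99 bases before the start, where CACGTG, which reads ACGTG on both strands and counts as 2 matches, stands between a pair of GCGTG matches, and a further GCGTG lies 35 bases before the start. *Bcl2l11* held 3 GCGTG matches, 222, 203 and 146 bases before the start. *Casp9*, which fell, held 2, 73 and 47 bases before the start, and these letters are not in the window of *Bmf*. Of the 34 members whose window was used, 20 held either core, among them 7 of 9 that were higher, 8 of 13 that were lower and 5 of 12 not past the limit. Either core was in 38.6% of 27025 mouse promoters of the same length, ACGTG in 16.5%, GCGTG in 28.3% and CACGTG in 6.04%. The 27025 were not limited to genes tested on these arrays, as the members were, so the sets are unlike. ACGTG stood in 5 of the 9 higher, 3 of the 13 lower and 1 of the 12 other members, the higher ones being higher relative to the 75th percentile. These matches are letters in a window, not measured binding. *Bik*, *Bnip3l*, *Gsdmd*, *Tnfrsf10b* and *Tradd* had no entry. *Pmaip1*, which was higher, lies on chromosome 18, whose windows were left out for the members but not for the 27025 promoters.

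*Casp2*, an initiator caspase that PIDD1 activates, had a signal of 6556 and 6932 in untreated AECs and 1335 and 1036 after OGD. It fell by 1.15 on the log2 scale (SE 0.099, adjusted p = 0.00217 in limma). *Aifm1*, a mitochondrial flavoprotein that acts in cell death without caspases once released, fell by 0.29 (adjusted p = 0.0335), and passed the limit in 11 of the 17 settings other than spike-in scaling. The executioner *Casp6* (−0.18, adjusted p = 0.109), the receptor-proximal *Casp8* (0.11, adjusted p = 0.346) and *Diablo* (0.07, adjusted p = 0.482), an antagonist of the inhibitors of apoptosis, did not pass the limit.

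*Cycs*, cytochrome c, depends on the probe. Its brightest probe had a signal of 50504 and 46618 in untreated AECs and 32898 and 28965 after OGD. That probe was lower after OGD before scaling and higher after it, at a log2 fold change of 0.72 (adjusted p = 0.00461 in limma), and it was at −0.04 with quantile normalization and −0.57 under spike-in scaling. A second probe gave 0.12 (adjusted p = 0.397), and another −0.32 (adjusted p = 0.0339).

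Of the 3 effectors of the Bcl2 family, 2 were higher, where 37.1% of all genes were. *Bax* was higher by 0.75 on the log2 scale (SE 0.083, adjusted p = 0.00359 in limma) and *Bok* by 0.46 (adjusted p = 0.0136), although both were lower under spike-in scaling, at −0.54 and −0.83. The signal of *Bax* itself was 24500 and 23324 in untreated AECs and 16280 and 14731 after OGD. *Bak1* did not pass the limit (−0.16 ± 0.23, SE, adjusted p = 0.573), and its OGD arrays were far apart, at 5090 and 2924.

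Of the inflammatory caspases and the pore protein of pyroptosis, 2 were higher and 2 lower, against 37.1% and 27.8% over the array. *Casp1*, which matures interleukin-1β, had a signal of 3427 and 3565 in untreated AECs and 638 and 502 after OGD. It fell by 1.25 on the log2 scale (SE 0.093, adjusted p = 0.00166 in limma). *Casp4*, the mouse sensor of lipopolysaccharide also called caspase-11, fell by 0.64 (adjusted p = 0.00517), with 2 probes that gave −0.64 and −0.66. *Casp12*, a caspase tied to the endoplasmic reticulum, was higher by 0.56 (adjusted p = 0.00793), and *Gsdmd*, the pore that caspases 1 and 11 cut open, by 0.55 (adjusted p = 0.00942), but both were lower under spike-in scaling, at −0.73 and −0.74. The probes of *Casp1*, *Casp4* and *Casp12* lie side by side on chromosome 9, between positions 5307206 and 5373034. Microglia express this group strongly, and the summed signal of the 6 microglial markers was 3803 and 3195 in untreated AECs and 1674 and 1284 after OGD. Most of that unscaled sum came from 1 probe of *Itgam* (3328 and 2726, then 1376 and 1015), whose scaled log2 fold change was 0.02 (adjusted p = 0.907 in limma). Of these 6 markers, 2 were higher and 1 was lower at the same limit under 75th-percentile scaling, and *Cx3cr1* was not well above background after OGD. Their part in the result was not tested.

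Of the 4 death receptors and adaptors, the 2 receptors were higher and the 2 adaptors lower, at a limit that 37.1% of all genes passed upward and 27.8% downward. *Fadd*, which bridges death receptors to caspase-8, had a signal of 1323 and 1370 in untreated AECs and 184 and 171 after OGD. It fell by 1.55 on the log2 scale (SE 0.081, 2.93-fold, adjusted p = 0.000993 in limma). *Tradd*, the adaptor of tumor necrosis factor receptor 1, fell by 0.59 (adjusted p = 0.00496). The receptors *Fas* (0.90, adjusted p = 0.00201) and *Tnfrsf10b*, the mouse receptor of TRAIL (0.47, adjusted p = 0.0134), were higher, but at −0.39 and −0.82 under spike-in scaling. Receptor and adaptor therefore moved apart relative to the rest of the array, whereas both were lower relative to the spiked RNA.

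Of the 2 necroptosis genes proper, 1 was higher, where 37.1% of all genes were. *Ripk3*, the kinase that starts it, was higher by 0.32 (SE 0.096, adjusted p = 0.0459 in limma) but at −0.96 under spike-in scaling, and it passed the limit in 9 of those 17 settings. *Mlkl*, the protein that ruptures the plasma membrane, was at 0.11 ± 0.21 (SE, adjusted p = 0.672), and *Ripk1* at 0.26 ± 0.085 (SE, adjusted p = 0.0597). The signal of *Mlkl* was low, at 146 and 132 in untreated AECs and 73.5 and 45.2 after OGD.

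Of the 8 pro-survival genes, by their brightest probes, 1 was higher, 3 were lower and 4 did not pass the limit, while 37.1% of all genes were higher and 27.8% lower. The 3 include *Mcl1*, whose probes gave opposite calls, and over the mean of probes 2 were lower. *Birc2*, which encodes the ubiquitin ligase cIAP1 that keeps Ripk1 in survival signaling, had a signal of 1210 and 1231 in untreated AECs and 222 and 232 after OGD. It fell by 1.05 on the log2 scale (SE 0.12, adjusted p = 0.00382 in limma), but a dimmer probe that lies 18123 bases upstream gave 0.03 (adjusted p = 0.778), and the mean over both probes was −0.51. *Bcl2l2*, which encodes Bcl-w, fell by 0.64 (adjusted p = 0.00473). *Bcl2l1*, the gene of Bcl-xL, had a signal of 56904 and 52007 in untreated AECs against 28747 and 27572 after OGD. It was higher by 0.42 (adjusted p = 0.0275) relative to the 75th percentile, but at −0.35 with quantile normalization and −0.87 under spike-in scaling. *Bcl2l1* passed the limit in 10 of the 17 settings other than spike-in scaling, quantile normalization with its opposite direction among them, but not with the methods' t-test or with the replicate block.

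*Mcl1*, the guardian with the shortest-lived protein, gave opposite calls with its 2 probes. The brighter probe had a signal of 45795 and 42731 in untreated AECs and 13180 and 13056 after OGD, and fell by 0.38 on the log2 scale (adjusted p = 0.0403 in limma), a call made in 10 of those 17 settings. A probe 1312 bases upstream had 7804 and 8170 against 5978 and 5327, and was higher by 0.87 (adjusted p = 0.00221), or −0.42 under spike-in scaling. No direction can be given for the gene as a whole relative to the 75th percentile. *Bcl2* (0.16, adjusted p = 0.316), *Xiap* (0.17, adjusted p = 0.165), *Birc3* (0.18, adjusted p = 0.251) and *Cflar*, the decoy of caspase-8 (−0.24, adjusted p = 0.0845), did not pass the limit.

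Pro-death and pro-survival genes were then set side by side. The 31 pro-death genes had 12 higher and 12 lower (*Bmf*, *Bik* and *Hrk* among the lower), beside 37.1% and 27.8% of all genes, with a median log2 fold change of 0.065 (SD 0.019 over the 4 pairings of 1 untreated and 1 OGD array). The 8 pro-survival genes had 1 higher and 3 lower by their brightest probes, *Mcl1* counted as lower, with a median of −0.042 (SD 0.086 over the 4 pairings). All genes tested had a median of 0.16, so both medians lay below it, although over the mean of each gene's probes the pro-survival median, 0.16, equaled that of all genes to 2 decimals. The difference of the medians, pro-death minus pro-survival, was 0.11, and ranged from 0.065 to 0.25 over the pairings. The pro-death counts moved to 16 higher and 11 lower with normexp, beside 60.5% and 20.8% of all genes. They were 12 and 9 with the stricter filter on dim probes, beside 43.3% and 28.2%. Under spike-in scaling they were 3 and 28, beside 3.84% and 83.3%. Without *Bnip3* and *Bnip3l* the difference was 0.026, and with the mean over each gene's probes it was −0.064, so no order of the classes can be given. With *Bmf* and *Hrk* at their bounds and *Bik*, which has none, left out, the pro-death median was 0.086 over 30 genes.

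**Figure D3:**
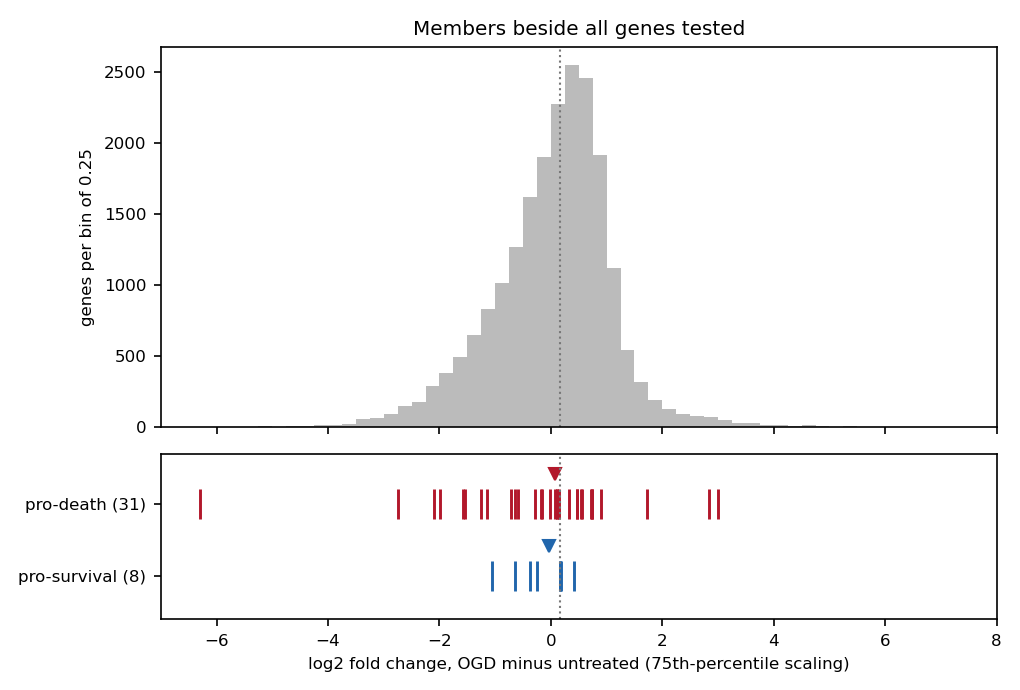
Upper panel, the number of genes per bin of log2 fold change (OGD minus untreated, 75th-percentile scaling) over the 21048 genes tested; lower panel, each pro-death and pro-survival gene as a tick, with triangles at the class medians of 0.065 and −0.042 and a dotted line at the median of all genes, 0.16. Under spike-in scaling all values shift by −1.29, so that both medians are well below 0.

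The probes of the 13 genes with several probes were also compared by position. Taking the probes bright enough to stand well above background on each of the 4 arrays, 10 genes had outermost probes at least 50 bases apart. The upstream probe had the higher log2 fold change in 9 of these 10, against 75.7% of 4577 genes on the array chosen alike. The gap was over 2 SE in 6 of the 9, near the 2461 of 3464 genes over the whole array, and in *Diablo* and *Bcl2l2* it was within 1 SE. *Mcl1* (0.87 upstream, −0.38 downstream), *Cycs* (0.72 and −0.32) and *Birc2* (0.03 and −1.05) showed it most plainly, and *Bnip3l* (1.79 and 1.21) did over 2234 bases. *Cflar* had the opposite order, and so did *Bcl2l11*, whose upstream probe was dim on an untreated array. What lies behind this order was not tested, and exon and UTR positions on mm9 were not used here.

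**Figure D4:**
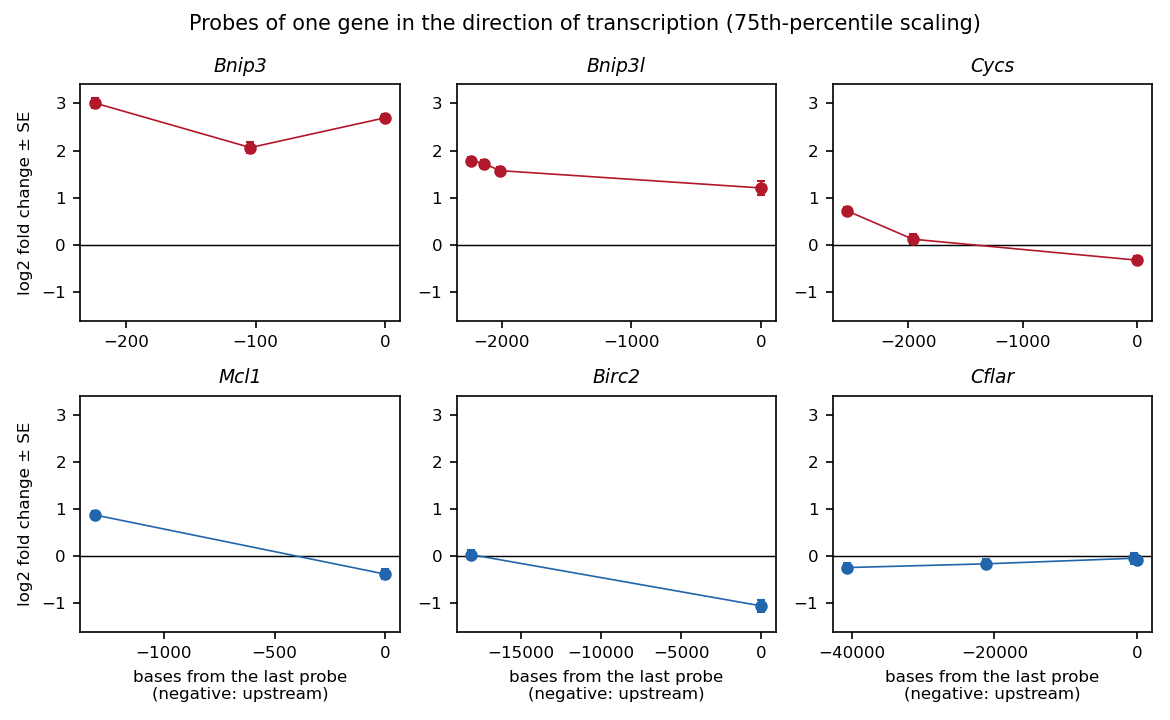
Log2 fold change (OGD minus untreated, 75th-percentile scaling) ± SE of each probe of 6 genes, against its distance in bases from the last probe in the direction of transcription. *Mcl1* and *Cycs* pass from above 0 upstream to below 0 downstream, a crossing that is not seen under spike-in scaling, where every probe of both genes was lower, while *Bnip3* stays above 2 throughout.

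Cell death genes outside the 40 members, 52 by name, were looked at beside them, and 45 were tested. Of these 45, 12 were higher and 21 lower at the same limit, and the median of the 45 log2 fold changes was −0.38. Of all genes, 37.1% were higher and 27.8% lower. The higher ones include *Fasl*, which entered through the OGD arrays alone. The lower ones include *Tnfsf10* and *Naip2*, which entered through the untreated arrays alone and have no measurable fold. *Bcl2a1d* and *Naip6*, which did not pass the limit, entered the median in that way too. The filter that asks for signal well above background on all 4 arrays gave 11 higher and 20 lower, beside 43.3% and 28.2% of all genes. With normexp 16 were higher and 15 lower, beside 60.5% and 20.8% of all genes, and under spike-in scaling 2 of the 45 were higher and 41 lower, beside 3.84% and 83.3%.

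At a change of at least 4-fold, *Tnfaip3* and *Fasl* were higher, and *Pidd1*, *Tnfrsf25* and *Gsdme* were lower. The share of all genes past 4-fold was not worked out. *Tnfaip3*, which encodes A20, a brake on NF-κB and on cell death from tumor necrosis factor, had a signal of 598 and 618 in untreated AECs and 4072 and 3951 after OGD. It was 17.1-fold higher (log2 fold change 4.09 ± 0.092, SE; adjusted p = 0.000731 in limma), and at 2.81 under spike-in scaling. *Fasl*, the ligand of Fas, was not well above background in untreated AECs (3.75 and 3.67) and was at 32.4 and 34.3 after OGD. It was at least 12.7-fold higher, and its log2 fold change was 1.79 with normexp. Its receptor *Fas*, higher relative to the 75th percentile, was lower under spike-in scaling.

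Those that fell were *Pidd1*, *Tnfrsf25* and *Gsdme*. *Pidd1*, the activator of caspase-2, had a signal of 1185 and 1115 in untreated AECs and 60.04 and 34.25 after OGD, and fell by 3.29 on the log2 scale (SE 0.24, adjusted p = 0.00159 in limma). Its log2 fold change ranged from −3.60 to −2.32 over the 17 settings other than spike-in scaling. *Casp2* was thus lower together with its activator. *Tnfrsf25*, a death receptor of the tumor necrosis factor family, fell by 2.99, from 244 and 235 to 12.3 and 10.99, and was at −0.81 with normexp. *Gsdme*, a pore protein of the gasdermin family, fell by 2.25, from 3670 and 3983 to 325 and 295, and was at −1.20 over the mean of its probes.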

How the data were processed

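The authors extracted total RNA, labeled it with Cy3, hybridized 1 Agilent mouse gene expression array per sample and read the images with Feature Extraction (version 11.5.1.1 in the submitters' processing notes). The deposited intensity is the processed signal of each spot, with background and spatial trend subtracted within the array and no normalization between arrays. The 4 arrays shared 1 slide and 1 scan. Probe positions are on mm9, per the file headers.

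From the deposited intensity, control and outlier spots (119 to 132 per array) were left out, log2 signals were averaged per probe, and the 75th percentile of each array was subtracted, as in the methods. The test took every probe that the software marked well above background in both samples of either group, and used lmFit and eBayes of limma 3.58.1 (R 4.3.3; residual df 2, prior df 1.85) and Benjamini–Hochberg adjustment. For probes with several spots, a fraction of 0.5 or more had to carry the mark. A gene had the value of its brightest probe over the 4 arrays. Of 59 accessions, 57 matched the RefSeq table, all with the same symbol. The fit was tested on simulated data. Tables and figures used Python 3.11.15, pandas 2.3.3 and matplotlib 3.10.9. For arrays, the number per group and the signal over background limit the precision.

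Members, classes and lists were chosen with earlier results of these data known. Every member was named, with values on each array where it passed an adjusted p of 0.05 and changed at least 2-fold. Genes whose probes gave opposite calls were given probe by probe. Of the other cell death genes, those changed at least 4-fold were named, and some results are not reported here. The methods' t-test was an alternative, as were a replicate block, other background corrections, scalings and filters, and each array left out in turn.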

Additional observations from a re-analysis of the deposited data

How the results depend on the processing

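The 12 genes with a fitted change of at least 2-fold, *Bik* included though it has no measurable fold, kept direction and call in every setting run, except that *Bik* and *Hrk* turned with normexp (0.90 and 0.50) and that a filter for probes well above background on all 4 arrays removed *Bmf*, *Bik* and *Hrk*. The number of arrays, 2 per group, limits every value, and dim probes give bounds.

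Under spike-in scaling 3 members were higher and 37 lower, the medians were −1.22 (pro-death) and −1.33 (pro-survival), and 2 of the other cell death genes were higher and 41 lower. With a 2-fold limit 3 members were higher and 9 lower by fitted value (8 without *Bik*, whose bound was under 1), beside 12.7% and 15.0% of all genes. The counts were 2 and 27 under spike-in scaling, which shifts every gene alike, and 3 and 5 with normexp. The shares of all genes at 2-fold were not worked out for those settings, so these counts cannot be read as particular to the members. Over 10-fold 0 were higher and 1 lower, beside 0.708% and 0.561% of all genes. Leaving out each array in turn gave 6 to 12 members higher and 10 to 15 lower, a pro-death median of 0.028 to 0.081, a pro-survival median of −0.15 to −0.0046, and a difference of 0.082 to 0.20. It also gave 5 to 11 other cell death genes higher and 15 to 22 lower. The pro-death median was 0.29 with normexp, −0.057 with quantile normalization, −0.088 with the percentile over detected probes, 0.11 with the stricter filter, 0.098 over the mean of probes and −0.016 without *Bnip3* and *Bnip3l*. The pro-survival median was −0.29 with quantile normalization, −0.20 with the percentile over detected probes and 0.16 over the mean of probes. The difference was 0.32 with normexp, 0.23 with quantile normalization, −0.064 over the mean of probes and 0.026 without *Bnip3* and *Bnip3l*. With quantile normalization 6 of the other cell death genes were higher and 25 lower, beside 28.4% and 31.1% of all genes. The median over all genes itself moved to 0.51 with normexp, −0.023 with quantile normalization and 0.41 without a filter, and the share of all genes called higher was 60.5% with normexp.

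Single genes that turned under spike-in scaling were *Pmaip1* (−0.55), *Bid* (−1.14), *Bax* (−0.54), *Bok* (−0.83), *Casp8* (−1.17), *Cycs* (−0.57), *Diablo* (−1.22), *Casp12* (−0.73), *Gsdmd* (−0.74), *Fas* (−0.39), *Tnfrsf10b* (−0.82), *Ripk3* (−0.96), *Mlkl* (−1.18), *Ripk1* (−1.03), *Bcl2* (−1.13), *Bcl2l1* (−0.87), *Xiap* (−1.12) and *Birc3* (−1.11). With the percentile over detected probes these were *Bid* (−0.0023), *Casp8* (−0.038), *Diablo* (−0.088) and *Mlkl* (−0.046), and with quantile normalization *Cycs* (−0.038), *Diablo* (−0.057), *Bcl2l1* (−0.35) and *Xiap* (−0.15). *Mcl1* turned over the mean of its probes (0.25). Leaving out an array turned *Bbc3* (−0.14 to 0.11 over the 4 arrays left out), *Mlkl* (−0.15 to 0.36) and *Bak1* (−0.46 to 0.14). Spike-in scaling and the percentile over detected probes shift all genes alike by construction, and for the other turns the cause was not tested.

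With the replicate number as a block, 11 members were higher and 13 lower, and 11 of the other cell death genes were higher and 21 lower, beside 34.3% and 26.3% of all genes. Same-numbered samples did not deviate together (r = −0.057 across probes), so the numbers were not taken to pair the samples. The methods' t-test, adjusted by Benjamini–Hochberg, gave 12 members higher and 14 lower, 9 of the other cell death genes higher and 16 lower, and 25.8% of all genes higher and 19.8% lower. The largest difference between the series' value table and the scanner files was 0.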
